A study of Mus musculus with 10 samples.

Results

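The proteasome is the main protease of the cytosol and nucleus, and the genes described here encode its subunits and the proteins that cap, block or mature it. The members were the genes that the deposited table pairs with the KEGG proteasome pathway and that had a mean of at least 0.5 FPKM over all libraries, without the 3 interferon-inducible catalytic subunits Psmb8, Psmb9 and Psmb10. FPKM is a fragment count scaled by transcript length and by the size of the library. Of 55401 genes in the table, 46 carried the pathway name, and 40 were members. The rule used annotation and mean level, not the genotype. Of the other 6, besides the 3 left out by name, Psma8, a testis subunit, averaged 0.275 FPKM, Ifng, which KEGG lists as an inducer, averaged 0.0357 FPKM, and Psmb11, the thymus subunit, had a count of 0 in every library.

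Liver RNA came from 10 mice, 5 labelled NIKflox (NIKF/F in the design text) and 5 labelled NIKhKO (NIKHKO there). For 4 weeks both groups were kept on a Lieber-DeCarli liquid diet that held 5% ethanol, so no mouse here was without ethanol. NIK is the NF-kB inducing kinase, encoded by Map3k14. The title of the series places it in the liver (hepatic NIK), and hKO is not spelled out. The strain, age, sex, Cre driver and deleted exons are not given in the sources used here, and no label says whether the mice came from separate litters. Each p-value below therefore speaks only of the variation among these 10 libraries, which may be partly technical.

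The 20S core of the proteasome is a barrel of stacked rings. The outer alpha rings gate the barrel, and the inner beta rings hold the proteolytic sites. A 19S cap recognises ubiquitin-tagged proteins, unfolds them with a ring of ATPases and removes the ubiquitin, while other activators open the barrel without ubiquitin. In the non-canonical NF-kB pathway NIK itself is kept low by proteasomal degradation, and NIK signalling makes the proteasome trim the NF-kB2 precursor into its active form. The liver turns over much protein, and the proteasome has long been studied in alcohol-fed animals.

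Library totals ran from 47161869 to 65052525 estimated counts, and members had 974 to 10551 counts in a library. Map3k14 read 0.553, 0.51, 0.585, 0.899 and 0.483 FPKM in NIKflox 1 to 5 and 0.347, 0.361, 0.443, 0.389 and 0.373 FPKM in NIKhKO 1 to 5. It was thus lower in every NIKhKO library, although edgeR's quasi-likelihood test gave an adjusted p of 0.33 over all genes (log2 fold change −0.59, SE 0.19). The 6 hepatocyte markers summed to between 37110 and 51540 FPKM in NIKflox and between 40810 and 47740 FPKM in NIKhKO. The 6 heart muscle markers summed to 6.27 FPKM in NIKflox 2 and 28.9 FPKM in NIKflox 4 and to at most 0.105 FPKM elsewhere, and the 5 adipocyte markers to 19.3 FPKM in NIKflox 2 and at most 1.32 FPKM elsewhere. Without NIKflox 2 and 4, 0 members and 1 of 12731 genes tested were called, and the median log2 fold change of the members was 0.04. In whole liver, fewer cells of a type and less RNA per cell cannot be told apart.

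Between NIKhKO and NIKflox livers, no change was detected in the RNA of any of these 40 genes. None passed edgeR's quasi-likelihood test at an adjusted p below 0.05, where 3 of 12731 genes tested did (0.0236%). Those 3, named after their values were seen, were Csad, Rcan2 and Sult2a3. The lowest adjusted p of a member was 0.45, for Psme4. At an unadjusted p below 0.05 there was 1 member, or 2.5%, against 10% of all genes tested. The FPKM ranges of the genotypes overlapped for all 40 members, whereas they did not overlap for 2.2% of all genes tested. DESeq2 called 0 members and 207 of the 12731 genes, with 1 member and 1380 genes at an unadjusted p below 0.05. With limma on log2(FPKM + 1), 2 members and 1375 genes had an unadjusted p below 0.05. It called 0 of the 12731 genes, so its 0 calls do not set the members apart.

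The estimates were small and fairly precise. Log2 fold changes (NIKhKO minus NIKflox) ran from −0.26 to 0.30, with a median of 0.02, against a median of −0.01 over all genes tested. The median absolute log2 fold change was 0.04 for members and 0.14 for all genes, and the median standard errors were 0.10 and 0.16. The 95% interval lay within 1.5-fold in both directions for 39 of the 40 members, and for 7196 of 12731 genes. Psme2b was the exception. An absolute log2 fold change above 0.25 was seen for 2 members, Psme4 and Psme2b, or 5%, against 28.5% of all genes tested. Members were also more highly expressed, with a median of 23.9 FPKM against 3.25 FPKM. The part of level in these comparisons with all genes was not tested. Signs were positive for 27 members and negative for 13 on the count scale (48.2% of all genes were positive), but positive for 13 and negative for 27 with limma on log2(FPKM + 1), where the median of all genes was −0.05 and that of the members −0.04. The median of the members lay above that of all genes by less than 0.05 on both scales.

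**Figure D1:**
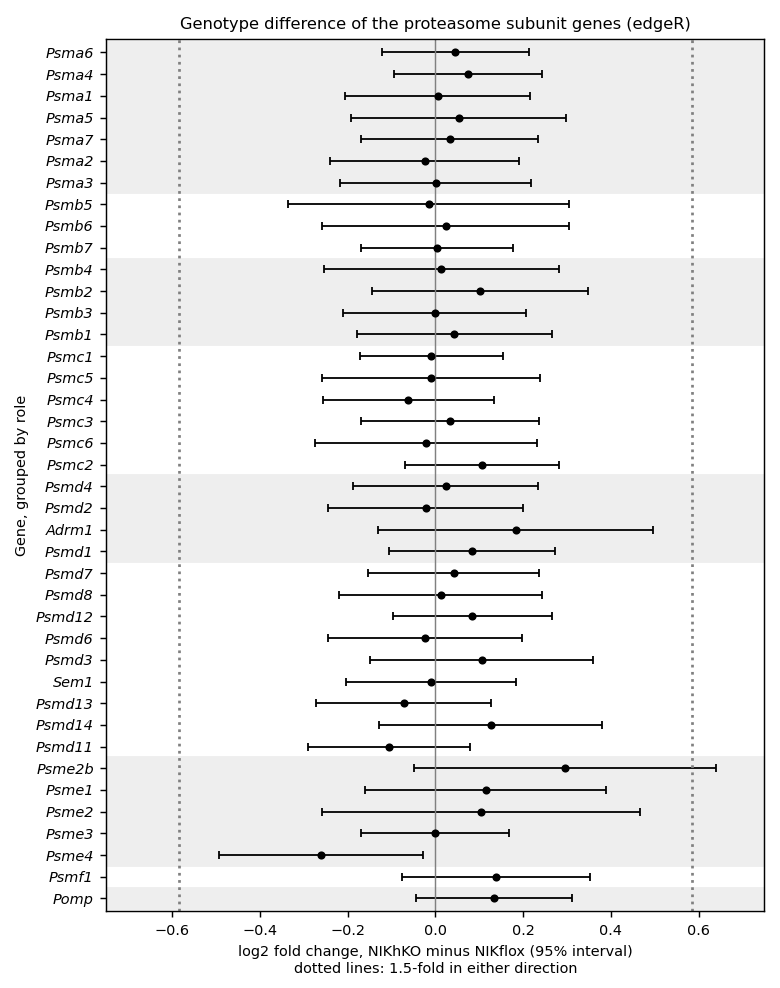
Log2 fold change of each of the 40 genes (x axis, NIKhKO minus NIKflox, edgeR) with its 95% interval, grouped by role (shaded bands; order from the top: 20S alpha ring, catalytic and other beta subunits, 19S base ATPases, other base subunits, 19S lid, activators, inhibitor, maturation factor). Every interval but that of Psme4 spans 0, and every interval but that of Psme2b lies between the dotted lines at 1.5-fold.

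The members spanned a wide range of levels. Gene means had a median of 23.9 FPKM, against 3.25 FPKM over all genes tested, and 38 of 40 lay above 10 FPKM. Subunits that stand in the particle at equal number differed in FPKM, for example by 4.25-fold between Psma6 and Psma3 of the alpha ring. Before scaling by length their estimated counts lay closer, at 3966 to 6591 and 2983 to 4555 in a library. The part of length in such differences was not tested. Ranks of abundance below are by mean FPKM, and ranks by estimated counts can differ. Psmb5 was highest at 87.4 FPKM, which placed it among the top 4.23% of genes tested, and Psmf1 lowest at 4.30 FPKM. Across all 10 libraries the coefficient of variation of FPKM ran from 6.92% for Psmd1 to 21.5% for Psme2b, with a median of 10.8% against 19.5% over all genes tested. Highly expressed genes have less counting error, and the part of level in this comparison was not tested.

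**Figure D2:**
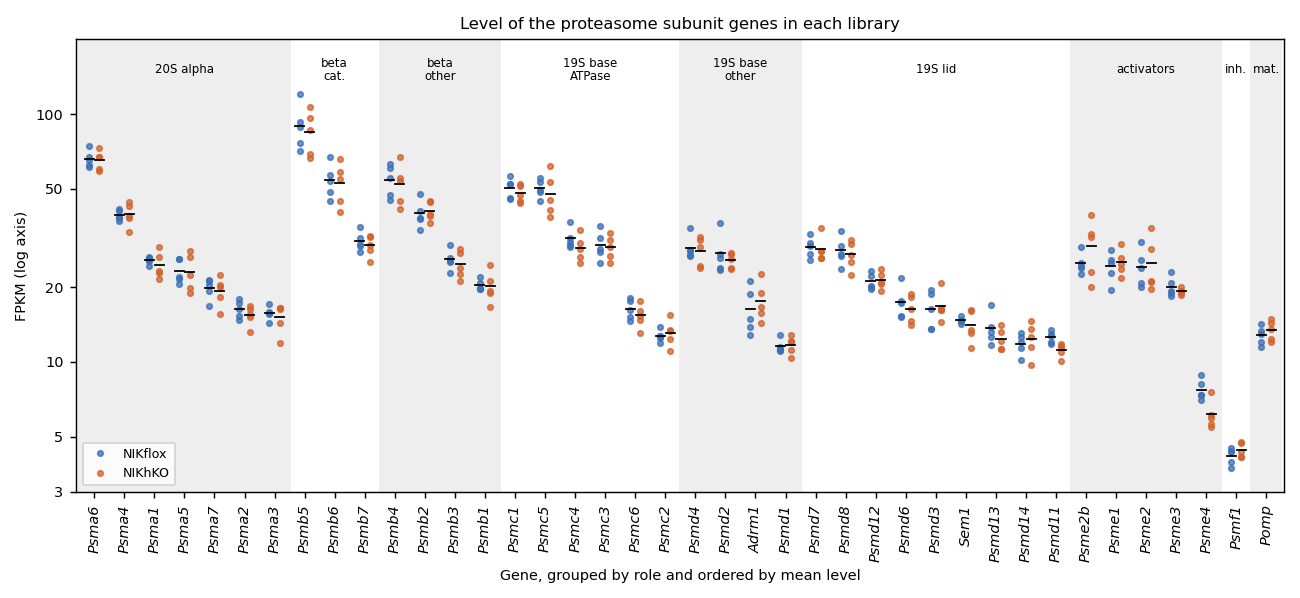
FPKM (log axis) of each member in every library, grouped by role, with NIKflox in blue and NIKhKO in orange; black bars are means of 5 libraries. The 2 genotypes overlap for every gene, including Psme4, where NIKhKO 4 lies among the NIKflox libraries.

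The 7 alpha ring genes (Psma1 to Psma7), which form the gate of the core, had log2 fold changes from −0.02 to 0.07. Psma6 had the highest mean FPKM of them, with 62.4, 67.1, 61.3, 74.0 and 65.1 FPKM in NIKflox 1 to 5 and 66.9, 73.0, 59.2, 59.9 and 67.0 FPKM in NIKhKO 1 to 5. Psma3 had the lowest mean FPKM, with 17.1, 15.9, 14.3, 15.8 and 15.7 FPKM in NIKflox and 16.5, 16.4, 12.0, 16.4 and 14.4 FPKM in NIKhKO. The ranges overlapped almost fully for Psma6, while for Psma3 NIKhKO 3 lay below every NIKflox library and the other 4 NIKhKO libraries lay within the NIKflox range. Summed over the ring, the level was 205.9 ± 7.86 FPKM in NIKflox and 202.4 ± 20.2 FPKM in NIKhKO (mean ± SD of 5 libraries). The NIKhKO sums ran from 177 FPKM in NIKhKO 3 to 227 FPKM in NIKhKO 2, beyond the NIKflox range on both sides.

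Psmb5, Psmb6 and Psmb7 encode the catalytic beta5, beta1 and beta2 subunits, with chymotrypsin-like, caspase-like and trypsin-like activity. Psmb5 (ENSMUSG00000022193, chromosome 14, 54614119 to 54618022, minus strand, coordinates as in the deposited table and equal to GRCm38) read 76.4, 71.1, 88.5, 120.5 and 92.6 FPKM in NIKflox and 96.1, 106, 69.1, 66.4 and 86.6 FPKM in NIKhKO. The highest value belonged to NIKflox 4 and the lowest to NIKhKO 4, yet NIKhKO 1 and 2 were also above the other NIKflox libraries. The means were 89.8 ± 19.2 and 84.9 ± 17.2 FPKM (mean ± SD of 5 libraries), and the log2 fold change was −0.02 with a 95% interval from −0.34 to 0.30. Psmb6 followed the same libraries, at 44.5, 48.5, 53.6, 67.2 and 57.0 FPKM in NIKflox and 58.5, 66.0, 40.2, 44.4 and 54.7 FPKM in NIKhKO. Psmb7 varied less, with 29.9, 29.3, 31.6, 35.1 and 27.6 FPKM in NIKflox and 32.0, 32.2, 25.4, 28.2 and 29.7 FPKM in NIKhKO. The median log2 fold change of the 3 catalytic genes was 0.00.

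Proteasome genes are known targets of NFE2L1, a factor that binds antioxidant response elements when proteasome activity is short, and Psmb5 and Psmb6 carry the core letters of that element just before their start. The windows below, from RefSeq's GRCm38.p6, show the match in these catalytic genes and in the ubiquitin receptor gene Adrm1, and the capitals mark the match to TGACNNNGC. Each is written in the direction of transcription.
Psmb5, chr14:54618008-54618068, minus strand: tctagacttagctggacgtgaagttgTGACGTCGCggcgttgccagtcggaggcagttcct
Psmb6, chr11:70525322-70525356, plus strand: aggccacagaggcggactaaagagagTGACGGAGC
Adrm1, chr2:180171400-180171460, plus strand: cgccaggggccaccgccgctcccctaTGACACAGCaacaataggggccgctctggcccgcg
The matches lay at −47 to −39, −9 to −1 and −162 to −154 from the annotated start, counted so that −1 is the base before it. Promoters were matched for 34 of the 40 members, and the 250 bases before the start were searched on both strands. No promoter was matched for Psmb7, the other catalytic gene, so it was not searched. TGACNNNGC was found in 5 of 34 members (14.7%), in Psmb5, Psmb6, Adrm1, Psmc6 and Psmd12. It was found in 14% of the 8817 tested genes with a promoter and in 11.5% of all 27025 genes in the promoter table, so the share among members was close to the background. The related TGAGNNNGC was found in 20.6% of members and 18.7% of tested genes, and CCAAT in 35.3% and 40.4%. Each motif was counted on its own, whether or not its match overlapped that of another. A match describes letters, not binding.

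Among the other beta subunits, Psmb4 and Psmb1 had the highest and the lowest mean FPKM. Psmb1 did not have the fewest estimated counts, with 4880 to 8073 in a library against 2340 to 3807 for Psmb2. Psmb4 read 47.1, 45, 60.4, 62.7 and 55.5 FPKM in NIKflox and 55.2, 67.0, 41.2, 44.5 and 53.7 FPKM in NIKhKO. Psmb1 read 20.8, 19.7, 22.0, 19.9 and 19.7 FPKM in NIKflox and 16.7, 24.7, 18.9, 19.4 and 21.2 FPKM in NIKhKO. NIKhKO 2 was the highest of all 10 libraries for both genes. Log2 fold changes of the 4 genes (Psmb1 to Psmb4) lay between 0.00 and 0.10, and the lowest adjusted p was 0.83.

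The 6 ATPases of the 19S base, Psmc1 to Psmc6, unfold substrates and thread them into the core. Their log2 fold changes ran from −0.06 for Psmc4 to 0.11 for Psmc2. Psmc1, the highest by mean FPKM, read 45.4, 45.7, 52.3, 56.1 and 52.1 FPKM in NIKflox and 51.4, 52.4, 43.6, 44.8 and 46.9 FPKM in NIKhKO. Psmc2, the lowest by mean FPKM, read 12.5, 11.9, 12.7, 13.8 and 12.8 FPKM in NIKflox and 13.3, 15.4, 11.1, 12.4 and 13.4 FPKM in NIKhKO. Psmc2 had the smallest p of the ring, with NIKhKO 2 above and NIKhKO 3 below all NIKflox libraries (SE 0.08, edgeR adjusted p = 0.73).

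The other base subunits include the ubiquitin receptors Psmd4 and Adrm1 and the scaffolds Psmd1 and Psmd2. Psmd4 read 26.9, 28.0, 28.3, 34.6 and 26.6 FPKM in NIKflox and 29.1, 32.0, 23.9, 24.4 and 31.0 FPKM in NIKhKO. Psmd1 read 11.2, 11.5, 11, 12.8 and 11.3 FPKM in NIKflox and 10.3, 12.0, 12.1, 11.2 and 12.8 FPKM in NIKhKO. Adrm1 varied most, with 12.9, 14.9, 13.8, 21.1 and 18.7 FPKM in NIKflox and 16.7, 22.6, 14.3, 15.8 and 18.9 FPKM in NIKhKO. Both genotypes thus held low and high libraries of Adrm1, and its log2 fold change of 0.18 (SE 0.14, 95% interval −0.13 to 0.50) had an edgeR adjusted p of 0.75.

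The 9 lid genes encode the part of the cap that removes ubiquitin chains, with Psmd14 as the deubiquitinase. Their log2 fold changes ran from −0.11 for Psmd11 to 0.13 for Psmd14. Psmd7, the partner of Psmd14, had the highest mean FPKM of the lid genes. It read 27.2, 29.4, 25.8, 32.7 and 30.1 FPKM in NIKflox and 28.1, 34.7, 26.2, 26.3 and 27.9 FPKM in NIKhKO. Psmd11 had the lowest mean FPKM of the lid genes but not the fewest estimated counts (3878 to 6201, against 1742 to 2923 for Psmd14). Psmd11 read 11.8, 12.7, 12.0, 13.5 and 13 FPKM in NIKflox and 10.1, 10.9, 11.8, 11.6 and 11.4 FPKM in NIKhKO. All NIKhKO values of Psmd11 but that of NIKhKO 3 lay below the lowest NIKflox value of 11.8 FPKM, and NIKhKO 3 lay level with it (SE 0.08, edgeR adjusted p = 0.75). Psmd14 read 12.6, 12.1, 11.4, 13 and 10.2 FPKM in NIKflox and 9.68, 14.6, 11.5, 12.6 and 13.6 FPKM in NIKhKO. NIKhKO 1 was the lowest and NIKhKO 2 the highest of all 10 libraries (SE 0.12, edgeR adjusted p = 0.78).

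The alternative activators held the largest estimates in both directions. Psme4 (ENSMUSG00000040850, chromosome 11, 30771726 to 30880361), which encodes the ubiquitin-independent activator PA200, read 7, 7.33, 8.13, 8.82 and 7.36 FPKM in NIKflox and 5.47, 5.63, 6.11, 7.56 and 5.96 FPKM in NIKhKO. In 4 of 5 NIKhKO libraries it lay below every NIKflox library, and NIKhKO 4 lay within the NIKflox range. The means were 7.73 ± 0.739 and 6.14 ± 0.830 FPKM (SD, n = 5 each), with a log2 fold change of −0.26 (SE 0.11). The 95% interval from −0.49 to −0.03 is not adjusted for the number of genes, and edgeR's adjusted p was 0.45. Without NIKhKO 4 the log2 fold change was −0.35 and the adjusted p 0.21, the lowest that any alternative gave to a member.

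Psme1 and Psme2 encode the interferon-inducible PA28 alpha and beta, and Psme3 the nuclear PA28 gamma. Psme2b (ENSMUSG00000078153, chromosome 11, 48945354 to 48946190, minus strand) is a copy of Psme2. It read 23.9, 22.6, 29.0, 24.4 and 25 FPKM in NIKflox and 39.0, 32.9, 23.1, 20.1 and 32.0 FPKM in NIKhKO. NIKhKO 1, 2 and 5 were above all NIKflox libraries, while NIKhKO 4 was below them all, and the log2 fold change was 0.30 (SE 0.16, 95% interval −0.05 to 0.64, edgeR adjusted p = 0.58). Without NIKhKO 1 it was 0.18. Of all 50-base windows in annotated Psme2b transcripts, 68.7% also occur in Psme2, and 28.3% of those of Psme2 occur in Psme2b. How reads were shared between the 2 genes may affect both levels, that of Psme2b more, and was not examined. Psme2 itself read 20.1 to 30.5 FPKM in NIKflox and 19.6 to 34.6 FPKM in NIKhKO (log2 fold change 0.10), and Psme3 had a log2 fold change of 0.00 with an interval from −0.17 to 0.17.

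Psmf1, which encodes the inhibitor PI31, was the lowest member by mean FPKM, with 4.48, 4.38, 3.94, 3.75 and 4.35 FPKM in NIKflox and 4.74, 4.34, 4.15, 4.12 and 4.72 FPKM in NIKhKO. NIKhKO 1 and 5 lay above all NIKflox libraries and the other 3 within their range (log2 fold change 0.14, SE 0.10, edgeR adjusted p = 0.71). Pomp, the factor that matures the nascent core, read 12.9, 12.0, 13.3, 14.2 and 11.5 FPKM in NIKflox and 13.6, 14.9, 12.4, 12.0 and 14.3 FPKM in NIKhKO. Its log2 fold change was 0.13 (SE 0.08, adjusted p = 0.65).

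Other members share sequence with copies elsewhere. Of 40 members, 15 had no 50-base window in common with another annotated gene, and 5 shared more than 20% of theirs, namely Psme2b, Psmb5, Psma5, Psme2 and Adrm1. For Psmb5 the copies include Gm3375 (46.8% of windows, 2.47 FPKM), and for Psma5 Gm8394 (33.6%, 3.70 FPKM). Psma3 shared 15.4% with Gm13835, which averaged 34.2 FPKM, above Psma3 itself at 15.4 FPKM. The levels of these genes are uncertain to that extent.

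Libraries of the same genotype differed from each other. NIKflox 4 and NIKhKO 2 each held the highest FPKM of 16 members, and NIKhKO 3 the lowest of 15. Over all genes tested, 24.1% were highest in NIKflox 4, 10.7% in NIKhKO 2, and 18.8% were lowest in NIKhKO 3. Summed over the 40 genes the level ran from 923.5 FPKM in NIKhKO 3 and 961.3 FPKM in NIKhKO 4 to 1211 FPKM in NIKflox 4 and 1219 FPKM in NIKhKO 2, so that the lowest and the highest sums both belonged to NIKhKO. The 20S genes summed to between 1.13 and 1.24 times the 19S genes in every library, from 1.16 to 1.24 in NIKflox and from 1.13 to 1.23 in NIKhKO, so core and cap genes kept nearly the same proportion.

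To set aside library-wide scaling, log2(FPKM + 0.1) of each gene was centred on its own mean and each library's median gene was set to 0. On this scale the median member stood at 0.12 in NIKhKO 2, 0.10 in NIKhKO 5 and 0.05 in NIKflox 4, at −0.09 in NIKhKO 3 and NIKhKO 4, and between −0.04 and 0.01 in the other 5 libraries. Members above 0 numbered 30 of 40 in NIKhKO 2 and 32 in NIKhKO 5, but 11 in NIKhKO 3 and 10 in NIKhKO 4, where 50% of all genes lie above 0 by construction. After removal of the genotype means, the 780 pairs of members had a mean Pearson correlation of 0.18 over the 10 libraries, and 64.5% of pairs were positive. Over all genes tested the mean was near 0, which the centring favours. These correlations share libraries and carry no p. Psmc5, Psmd4 and Psmc2 moved most with the other members (mean correlations of 0.39, 0.39 and 0.38), while Psme4 at −0.25, Psmc6 at −0.21, Psmb2 at −0.17 and Psmd11 at −0.16 moved the other way.

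**Figure D3:**
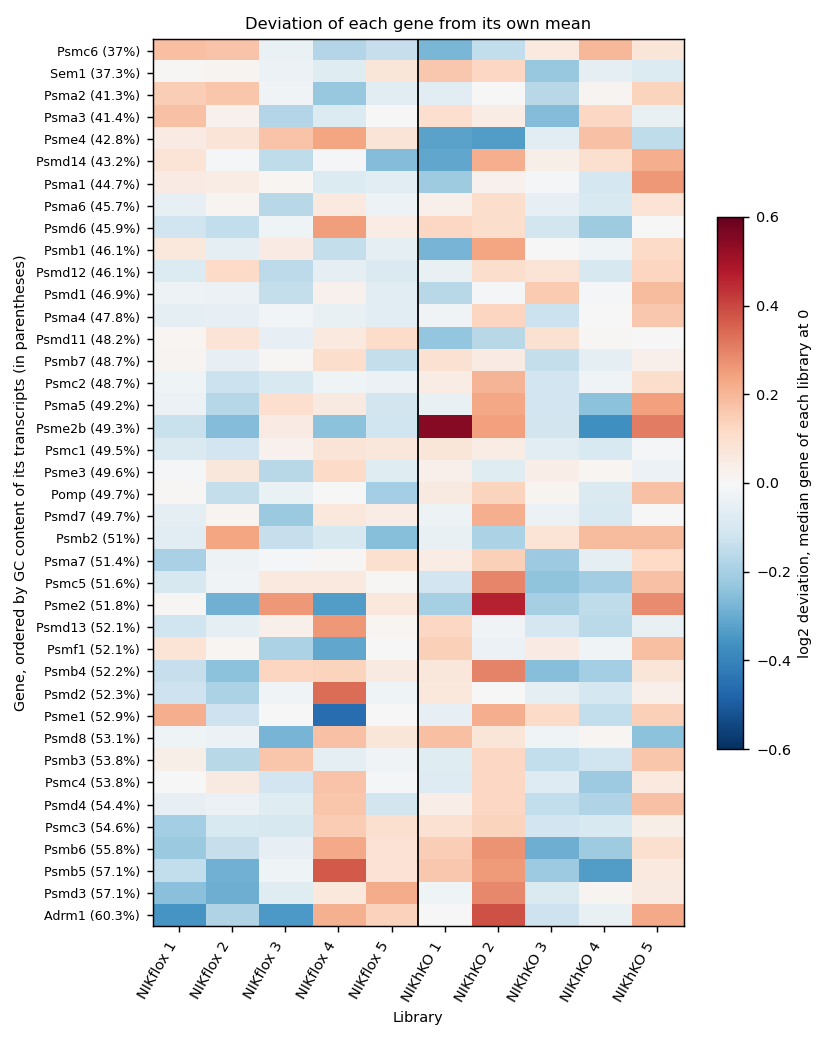
Log2 deviation of each member (rows, ordered by the GC content of its transcripts) from its own mean in each library (columns, NIKflox left of the line), with the median gene of each library at 0. NIKhKO 2 and 5 are mostly red and NIKhKO 3 and 4 mostly blue, and the rows at the bottom, of high GC content, are reddest in NIKflox 4 and NIKhKO 2 and blue in NIKflox 1 and 2.

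The pattern also differed between members by base composition, a feature the rule did not use. Transcript GC content ran from 37.0% for Psmc6 to 60.3% for Adrm1, with a median of 49.6% against 51.1% for tested genes. Over the 40 members, the Spearman correlation of GC content with the deviation was −0.56 in both NIKflox 1 and NIKflox 2 and −0.43 in NIKhKO 4, and 0.42, 0.43 and 0.45 in NIKflox 4, NIKflox 5 and NIKhKO 2. Over the 10591 tested genes with a GC value the same libraries gave −0.13, −0.22, −0.28, 0.28, 0.23 and 0.17, with the same signs. Signs also matched in NIKhKO 1 (0.30 over members, 0.17 over all) and NIKhKO 3 (−0.22 and −0.21), but not in NIKflox 3 (−0.07 and 0.06) or NIKhKO 5 (0.08 and −0.13), where the correlations were weak. The 13 members of highest GC content (52.1% and above), which include Psmb5, Psmb6, Adrm1 and Psmd3, had a median deviation of −0.12 in NIKflox 1, −0.14 in NIKflox 2 and 0.17 in NIKflox 4. The 13 of lowest GC content (47.8% and below) stood at 0.05, 0.02 and −0.06 in those 3 libraries. In NIKhKO 2 and NIKhKO 5 both ends lay above 0, at 0.13 and 0.10 and at 0.07 and 0.12. Genes, not samples, are the points of these correlations, and the part of base composition in the levels was not tested. GC content had a Spearman correlation of 0.18 with the genotype log2 fold change of the members and of 0.49 with their coefficient of variation.

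**Figure D4:**
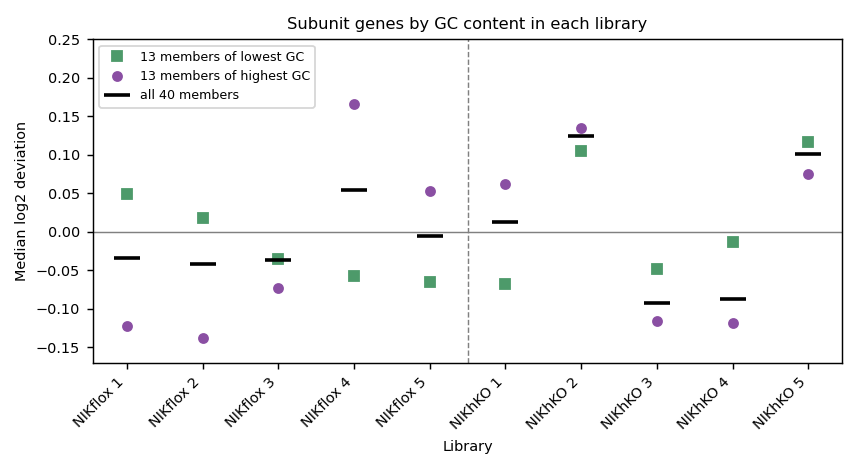
Median log2 deviation (y axis) in each library of the 13 members of lowest GC content (green squares), the 13 of highest GC content (purple circles) and all 40 (black bars). High-GC members lie below low-GC members in NIKflox 1 and 2 and above them in NIKflox 4, and both lie above 0 in NIKhKO 2 and 5.

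Genes that assemble, regulate or feed the proteasome were not called either. Of 43 such genes tested outside the 40 members, 0 were called higher and 0 lower in edgeR's quasi-likelihood test, 1 (Psmb10) had an unadjusted p below 0.05, and the median log2 fold change was 0.05. The 8 assembly chaperones had 4 positive and 4 negative estimates and a median of 0.00. The 9 regulators, around Nfe2l1 and Nfe2l2, had 8 positive and 1 negative, the 14 tested deubiquitinases, ligases and shuttles (with the member Psmd4 among them) 8 and 6, and the 10 genes of ubiquitin and its activation 3 and 7. The genotype ranges did not overlap for 1 of the 43, the shuttle gene Ubqln1 (27.08 to 31.8 FPKM in NIKflox, 23.97 to 27.03 FPKM in NIKhKO, edgeR adjusted p = 0.78), against 2.2% of all genes tested.

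The regulator with the negative estimate was Nfe2l1 itself, the factor of the promoter element above. It read 21.1, 5.01, 4.56, 32.3 and 25 FPKM in NIKflox and 15.7, 5.01, 7.08, 3.93 and 4.06 FPKM in NIKhKO. NIKflox 1, 4 and 5 and NIKhKO 1 were at 15.7 FPKM or more, and the other 6 libraries, of both genotypes, at 7.08 FPKM or less. Its log2 fold change of −1.23 (SE 0.58, 95% interval −2.49 to 0.04) had an edgeR adjusted p of 0.52. With each library's median gene at 0, the median member stood at −0.03, 0.05 and −0.01 in NIKflox 1, 4 and 5 and at 0.01 in NIKhKO 1. In the other 6 libraries it ran from −0.09 in NIKhKO 3 to 0.12 in NIKhKO 2. Whether the level of Nfe2l1 and those of the members are related was not tested.

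The gene of ubiquitin activation with the smallest p was Ube2l3, a ubiquitin-conjugating enzyme. Ube2l3 read 11.3, 5.66, 11.5, 12.1 and 9.67 FPKM in NIKflox and 5.23, 11.5, 6.28, 5.45 and 3.91 FPKM in NIKhKO, with an edgeR adjusted p of 0.51 (log2 fold change −0.58, SE 0.27). One library of each genotype, NIKflox 2 and NIKhKO 2, stood with the other group. No source used here says how reads were assigned to Nfe2l1 and Ube2l3 in each library, and whether their wide spread is one of RNA level was not tested.

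The 3 inducible catalytic subunits that replace Psmb5, Psmb6 and Psmb7 in the immunoproteasome were less abundant than their constitutive counterparts. Psmb10 read 14.4, 10.6, 12.4, 11 and 14.1 FPKM in NIKflox and 17, 21.4, 12.2, 13.5 and 19 FPKM in NIKhKO (log2 fold change 0.46, SE 0.16, edgeR adjusted p = 0.35), with NIKhKO 1, 2 and 5 above all NIKflox libraries, the same 3 libraries as for Psme2b. Psmb8 averaged 5.35 ± 1.47 and 6.18 ± 1.5 FPKM and Psmb9 3.01 ± 0.749 and 3.31 ± 0.854 FPKM (SD, n = 5 each, NIKflox first), with adjusted p-values of 0.78 and 0.84. The 6 B cell markers summed to between 3.6 and 6.58 FPKM in NIKflox and between 5.31 and 14.4 FPKM in NIKhKO, where NIKhKO 1, 2, 3 and 5 exceeded 10 FPKM, while NIKhKO 3 was among the low NIKhKO libraries for Psmb10 and Psme2b. Their part in those values was not tested.

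**Figure D5:**
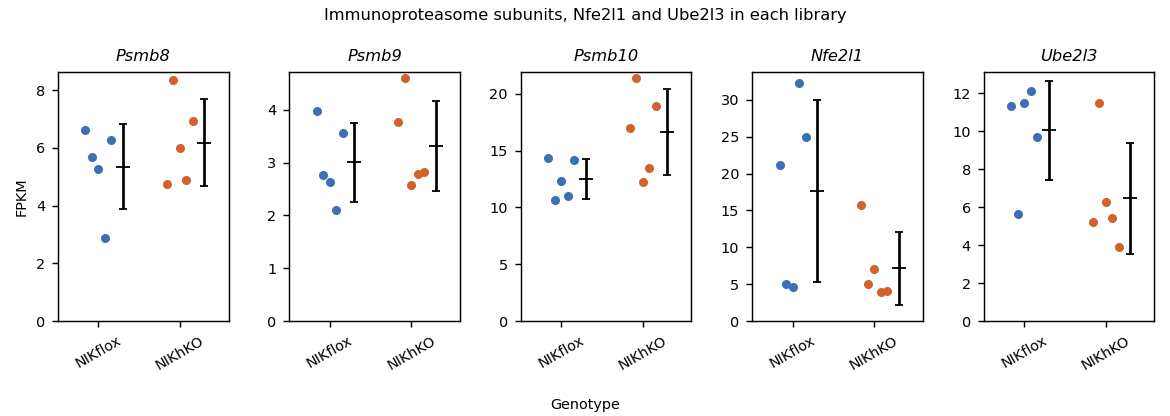
FPKM in each library of the 3 immunoproteasome genes, Nfe2l1 and Ube2l3, by genotype (points are libraries 1 to 5 from left to right; bars are mean ± SD, n = 5). Each panel has its own axis from 0, and the genotypes overlap in all 5.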

How the data were processed

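The authors' deposited table gave FPKM values and, per the file headers, whole-number estimated counts for each library. Genes with a count of 0 are listed at 1e-04 FPKM. Among tools, the submitters' processing notes list StringTie 1.3.4d, HISAT2 2.0.4, edgeR and cutadapt 1.9, with no role for any, and as build hg38, although the identifiers are mouse. All 40 members were found in GENCODE M21 (GRCm38), 36 with the same coordinates. Low estimated counts pile up at 4 (907 genes per library, against 330.5 at 3), so totals may overstate depth, which was not tested.

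edgeR 4.0.16 (R 4.3.3; TMM, quasi-likelihood test, two-sided, Benjamini-Hochberg adjustment) was run on the deposited estimated counts of 12731 genes: those with a mean FPKM of at least 0.5, plus Map3k14. A call is an adjusted p below 0.05. The standard error is the absolute log2 fold change divided by the root of F. The 95% intervals use the total degrees of freedom of the fit, residual plus prior. The script was tested on simulated data. DESeq2 1.42.0, limma 3.58.1 and other settings were alternatives.

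Members, lists and named genes were chosen with earlier results of these data known. Values by library are given for the 8 members with the smallest p, the extremes of fold change and the highest and lowest member of each role by mean FPKM. For other lists, they are given for the 3 genes with the smallest p, Nfe2l1 and Psmb10. Psmb6, the deviations by library, shared sequence and base composition were added after seeing the values. Transcript GC content is the mean over a gene's protein-coding transcripts in GENCODE M21. One gene of the pathway lists is not reported here and is in none of their counts.

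Replicate numbers did not pair the libraries. Kupffer cell, T and NK cell, endothelial, stellate and cholangiocyte markers were also summed. They ran from 94.0 to 164.9 FPKM and 102.6 to 164.1, 0.899 to 1.52 and 0.896 to 1.52, 37.6 to 46.7 and 26.0 to 42.1, 85.3 to 129.5 and 65.2 to 96.8, and 26.1 to 46.2 and 15.8 to 26.9, NIKflox first.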

Additional observations from a re-analysis of the deposited data

Results flagged for a closer look

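Of 92 sets of 5 libraries examined, 5 held 1 library far from the others, where chance flags about 1 in 20. NIKflox 4 was the highest NIKflox library by such a gap for Psmd1 (12.8 FPKM, next 11.5), Psmd4 (34.6 FPKM, next 28.3) and Map3k14 (0.899 FPKM, next 0.585). NIKhKO 2 stood apart for Psmd7 (34.7 FPKM, next 28.1) and NIKhKO 1 for Nfe2l1 (15.7 FPKM, next 7.08).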

How the results depend on the processing

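No alternative called a member: 0 of 40 passed under all 19, with lowest adjusted p-values between 0.21 and 0.69. The median log2 fold change of the members stayed between −0.05 and 0.06. The SD of the member median between replicates was 0.07, a spread of single libraries and not of a difference between group means. The count over all genes was less stable: 3 became 207 with DESeq2, 0 with limma on log2(FPKM + 1) and on log2(FPKM + 0.1) (1375 and 1365 at an unadjusted p below 0.05), 1 without NIKflox 2 and 4, and 0 to 24 when single libraries were left out, the latter without NIKhKO 4. The cause was not tested. With the replicate number as a block it was 2, with 0 members. Same-numbered libraries had correlations between −0.25 and 0.05 after removal of group means, and 0 of 5 correlated best with their own number, so the replicate block pairs nothing. Map3k14 falls under the 1 FPKM filter and has no value there. Psme4, Psme2b, Pomp, Psmf1, Psmc2, Adrm1, Psmd11, Psmd14, Psmb8, Psmb9, Psmb10, Nfe2l1, Ube2l3 and Map3k14 kept their sign and stayed uncalled in every alternative run for them. Members with smaller estimates did not all keep their sign: with limma on log2(FPKM + 1), 13 of 40 were positive, against 27.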
